A study of Homo sapiens with 2 samples.

Results

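The N-myc downstream-regulated genes NDRG1, NDRG2, NDRG3 and NDRG4 form a family of 4 human genes, and all 4 of them were read on Hep3B arrays with and without a miR-19b inhibitor. Their probes were those that carry 1 gene symbol of the family in the platform annotation, with symbols updated by Entrez identifier, which gave 5 of the 29187 probes and 4 of the 18821 named genes. Hep3B is an established line of human liver cancer cells (hepatocellular carcinoma). One array held RNA of Hep3B cells transfected with the inhibitor (anti-miR-19b), the other RNA of Hep3B cells given the control. Each was used at 90 pmol per well, with RNA collected 24 h after transfection. The study does not describe the control further. There was 1 deposited array per condition and no replicate, so no test was made here. No error can be attached to a value from these intensities, and every value describes these 2 arrays. The study prints P-values for its lowered genes, but does not state the test or the repeats behind them. The study itself lists NDRG1 as lowered on the same arrays, so that the NDRG1 ratio is a description and not a finding.

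The NDRG proteins share the fold of the alpha/beta hydrolases and are regarded as lacking hydrolase activity. NDRG1 is induced by hypoxia, iron depletion and differentiation, is repressed by MYCN and MYC, and is phosphorylated by the kinase SGK1 and then by GSK3. It is known as a suppressor of metastasis in several carcinomas, and in hepatocellular carcinoma high NDRG1 has also been linked to poor outcome. NDRG2 is abundant in brain and is often silenced in tumors, NDRG3 is stabilized by lactate under hypoxia after escaping the prolyl hydroxylase EGLN1, and NDRG4 is a gene of brain and heart.

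The inhibitor is directed at miR-19b. Its mature sequence, from RefSeq, is shown beside that of miR-19a to give the seed through which either would pair with a message, with the seed (bases 2 to 8 from the 5′ end) in capitals.
hsa-miR-19b-3p: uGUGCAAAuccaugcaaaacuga
hsa-miR-19a-3p: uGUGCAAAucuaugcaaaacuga
The same miR-19b sequence is encoded at chr13:91351245-91351267 on the plus strand and at chrX:134169683-134169705 on the minus strand, and miR-19a at chr13:91350939-91350961 on the plus strand (GRCh38.p14). The 2 mature forms differ outside the seed, by C11U, counted from the 5′ end of miR-19b. The arrays read mRNA, so the mature microRNAs were not measured, and no 3′ untranslated sequence of the NDRG genes was used here.

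Values are the authors' normalized intensities on a linear scale. The log2 ratio is anti-miR-19b over control, and it was formed at the 26186 probes above 0 on both arrays, where its median was 0.03. All 5 NDRG probes were among them. The mean level of a probe is the mean of its log2 intensities, given back as an intensity, and its median over these probes was 41.4. The NDRG probes were all above it. The middle spread of the ratio (percentile 16 to 84, divided by 2) was 0.26 at or above the median level and 0.87 below it. The brightest markers of liver cells were GPC3, at 33954 on the control and 30459 on the anti-miR-19b array, and ALB, at 14382 and 15550. Of the 10 liver markers, 9 had a named probe. By their brightest probe all 9 were at or above the median level, with FGB the dimmest (67.2 and 68.6). Markers of blood cells and vessels such as CD3E (5.36 and 5.03) and PECAM1 (25.5 and 22.5) were dim. Of the 10 markers of blood cells, vessels and stellate cells, 3 were at or above the median level: CD68, CDH5 and COL1A1.

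NDRG1 (Entrez 10397) was read by 1 probe, at 5009 in control cells and 3246 in anti-miR-19b cells. The anti-miR-19b array thus carried 64.8% of the control intensity, a log2 ratio of -0.63, and the control was 1.54 times as high. That is just past 1.5-fold (0.58 on the log2 scale), the size of difference that the study states for its candidates. Its list of lowered genes also gives each a P-value, so fold size may not have been its only criterion. The log2 ratio it prints for NDRG1 is slightly nearer 0 than the one here. NDRG1 was the one NDRG probe of 5 that was over 1.5-fold lower, and 0 were over 1.5-fold higher. Over all compared probes 12.0% were over 1.5-fold lower and 13.8% higher, and at or above the median level 1.05% and 2.41%. Since the study chose NDRG1 by this comparison, nothing is read from the count.

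**Figure D1:**
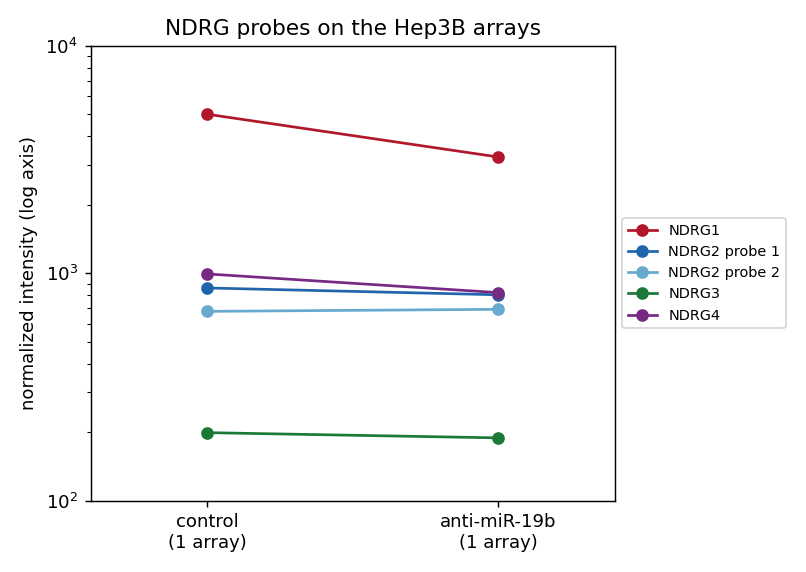
Normalized intensity (log axis) of the 5 NDRG probes on the control and the anti-miR-19b array, 1 array each, with a line joining the values of a probe and no error bars because there are no replicates. The NDRG1 line goes from 5009 to 3246, and the lines of the other genes are less steep, that of NDRG4 (993 to 822) the steepest among them. Heights of different probes cannot be compared as amounts of message.

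NDRG2 (Entrez 57447), a gene silenced in many tumors, was read by 2 probes. The first had 862 in control and 804 in anti-miR-19b cells (log2 ratio -0.10). The second had 680 and 694 (0.03). The probes thus pointed to opposite sides of 0, with a mean log2 ratio of -0.03 and neither near 1.5-fold. They differed by 0.13, where the median distance between both ratios of a gene was 0.24 over the 1629 genes with exactly 2 probes at or above the median level.

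NDRG3 (Entrez 57446), the lactate-responsive member, was read by 1 probe with 199 in control and 189 in anti-miR-19b cells, a log2 ratio of -0.08. NDRG4 (Entrez 65009), the member of brain and heart, was read by 1 probe with 993 and 822, a log2 ratio of -0.27, so that the anti-miR-19b array carried 82.8% of the control intensity. NDRG4 was thus the next lowest member after NDRG1 and lay within 1.5-fold. The NDRG1 and NDRG4 ratios were 0.35 apart in log2 units, with NDRG1 lower, and the combined middle spread of probes at these levels, as for a difference of 2 probes, was 0.30. NDRG1 lay below the NDRG2 probes by 0.53 and 0.66 (middle spreads 0.31 and 0.30) and below NDRG3 by 0.55 (0.33). Among NDRG2, NDRG3 and NDRG4 no 2 probes were farther apart than the middle spread of their difference, the widest gap being 0.30 against 0.32, between the second NDRG2 probe and NDRG4. These spreads come from other probes of the same 2 arrays and do not replace a replicate error. The study chose NDRG1 for its ratio, so the gaps between NDRG1 and its paralogs describe that choice and test nothing.

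**Figure D2:**
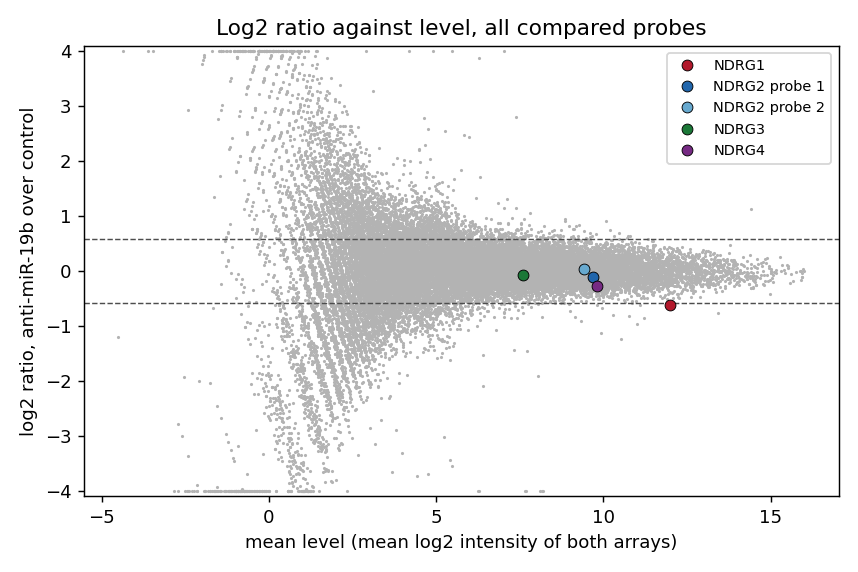
Log2 ratio, anti-miR-19b over control, against mean log2 intensity for the 26186 compared probes (grey; values beyond 4 either way drawn at the edge), with the 5 NDRG probes in color and 1.5-fold as dashed lines. The grey cloud narrows to the right, where NDRG1 lies at its lower edge at -0.63, while the other NDRG probes lie inside it.

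For each NDRG probe the 500 probes closest in mean level were taken as its neighbours, since the ratio scatters more at dim probes. For NDRG1 these were probes with mean levels of 2921 to 5566. Their log2 ratios had a median of 0.01, a middle spread of 0.20 and a range of -0.51 to 0.47, so that none of the 500 was as low as NDRG1 and none passed 1.5-fold in either direction. The nearest below the threshold was MST1, at 4568 in control and 3203 in anti-miR-19b cells (-0.51, a control 1.43 times as high), followed by ETV5 (-0.49). Among the 1000 nearest probes 1 was lower than NDRG1, a probe of HSPA6 (3175 and 1757, -0.85). NDRG1 was chosen for its ratio, so its place below this range is a description of that choice.

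The paralogs were not chosen by the study for their ratio. Of their 500 neighbours, 183 lay below the first NDRG2 probe and 270 below the second. For NDRG3 the number was 157 and for NDRG4 67. NDRG2 and NDRG3 thus lay inside the middle range of probes of like level, from percentile 16 to 84, and NDRG4, at percentile 13.4, just outside it on the low side (-0.27 against a percentile 16 of -0.24).

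**Figure D3:**
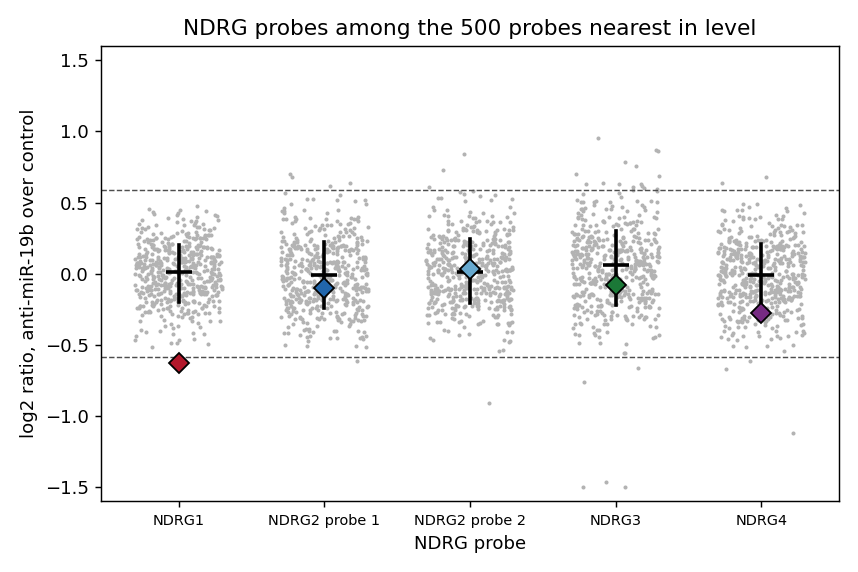
Log2 ratio, anti-miR-19b over control, of each NDRG probe (diamond) and of the 500 probes nearest in mean level (grey points; values beyond 1.5 either way drawn at that value), with their median and percentiles 16 to 84 in black and 1.5-fold as dashed lines. The NDRG1 diamond, at -0.63, is below all of its 500 grey points, and the 4 other diamonds are among theirs.

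Differences over 1.5-fold were few at the level of NDRG1. Of the 756 other probes with a mean level at or above that of NDRG1, 1 was over 1.5-fold lower (0.132%) and 1 over 1.5-fold higher. The lower one read ANXA4, an annexin, at 14429 in control and 8504 in anti-miR-19b cells (-0.76). The higher one read APOA2, the apolipoprotein A-II of high density lipoprotein, at 14603 and 32084 (1.14). The probes at or above the median level were also ordered by level into 5 bins of like size. The share over 1.5-fold lower was 3.05% in the dimmest bin, 0.649% in that of NDRG3 and 0.344% in that of NDRG2 and NDRG4. It was 0.306% in the bin of NDRG1, where NDRG1 itself is counted.

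The probes with the pattern most like NDRG1, by the distance between their pairs of log2 intensities over the 2 arrays, were MST1 (distance 0.13), RAD9A (0.16) and SLC25A25 (0.17), with log2 ratios of -0.51, -0.40 and -0.42. For NDRG4 they were TCAIM (0.02; log2 ratio -0.27), DHX37 and MTERF3, for NDRG3 SMIM5, BCDIN3D and ELOVL7, for the first NDRG2 probe SMIM14, SOX9 and EIF2B4, and for the second AGGF1, RAB11FIP3 and MGAT4A. NDRG1 thus lay farther from its 3 nearest probes than the paralogs, for which the farthest of the 3 was at 0.02. The ratio for which the study chose NDRG1 comes from the same 2 intensities, so this distance partly repeats that choice. Probes are also sparser at its level: its 500 neighbours spanned 2921 to 5566, and those of NDRG3 180 to 209. With 2 arrays such likeness rests on 2 values a probe.

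Genes reported to control NDRG1 transcription were described next. Of 12 listed, 10 were compared, and by the mean of their probes 0 were over 1.5-fold higher or lower, beside 12.4% and 10.8% of all 17438 compared genes. Of the 10, 8 had a ratio above 0 (53.1% of all genes, and 53.6% of genes at probes at or above the median level), and the median of the 10 was 0.27 beside 0.03 for all genes. Among the 8 was HIF1A, which the study itself names as raised on these arrays. MYC, a repressor of NDRG1, had 126 in control and 189 in anti-miR-19b cells, a log2 ratio of 0.58 and just within 1.5-fold. MYCN, the repressor that gave the family its name, was at -0.80 and -2.06, at the floor of the arrays, so no ratio was formed.

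Several activators of NDRG1 had ratios above 0. AHR, the aryl hydrocarbon receptor, gave 0.55 at one probe (367 and 536) and 0.42 at the other (934 and 1249). EGR1, an immediate early factor, had 5809 and 7119 (0.29). HIF1A, the subunit of hypoxia-inducible factor 1 that oxygen destabilizes, gave 0.14 at its brighter probe (332 and 365) and 0.62 at the other (231 and 356). Its partner ARNT gave 0.04 (1397 and 1434). EPAS1, which encodes HIF-2 alpha, gave 0.25 at its brighter probe (147 and 175) and 0.66 at the other (37.5 and 59.4). SP1, a general activator, was below 0, with -0.31, -0.17 and -0.30 at its 3 probes. MAX, the partner of MYC, had -0.14, -0.06 and 0.19, with a mean of -2.28e-05 that is in effect on neither side of 0. The ratios of the activators and of NDRG1 thus lay on opposite sides of 0 except for SP1. The study picked both HIF1A and NDRG1 by their ratios on these arrays, so the opposite sides of these genes describe that choice. Whether these differences bear on NDRG1 was not tested.

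**Figure D4:**
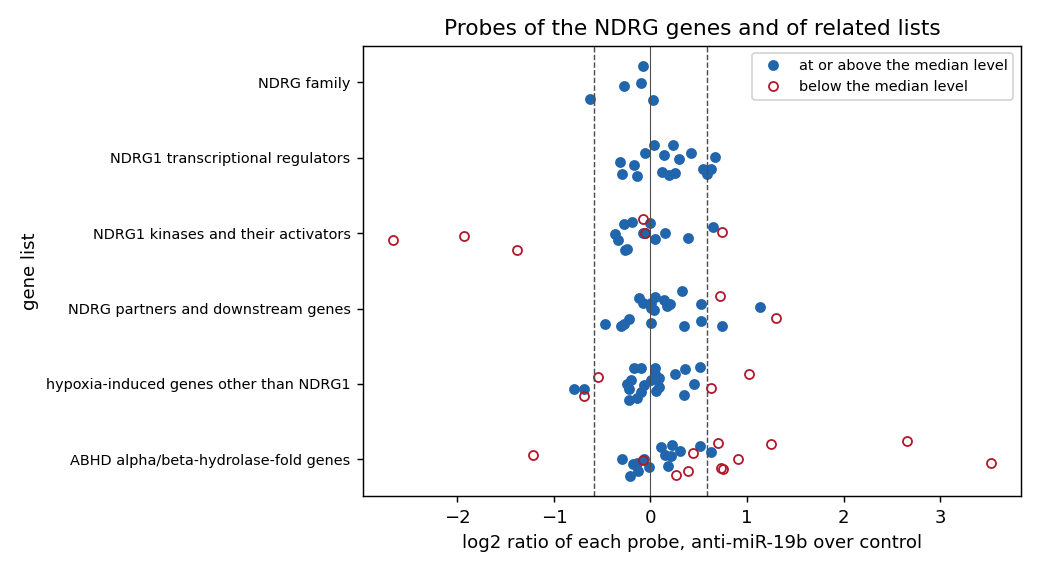
Log2 ratio, anti-miR-19b over control, of each probe of the NDRG genes and of 5 related gene lists, with filled points for probes at or above the median level of 41.4, open points for dimmer ones and 1.5-fold as dashed lines. The open points spread widest, and few filled points lie beyond the dashed lines, among them NDRG1 (-0.63), P4HA2 (-0.79) and APOA2 (1.14).

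The kinases of NDRG1 and their activators numbered 13, of which 1 was over 1.5-fold higher and 2 lower (12.4% and 10.8% of all genes). Their median was -0.19, and -0.08 at probes at or above the median level. Each of these 3 owed it to dim probes: SGK1 (2.14 in control and 3.58 in anti-miR-19b cells), which phosphorylates NDRG1, RICTOR (20.3 and 19.5 at its brighter probe) and PDPK1, whose brightest probe gave 0.39 (158 and 207). At probes at or above the median level, 0 of 11 genes were over 1.5-fold either way (0.941% of genes lower and 1.73% higher). SGK1 itself was near the floor of both arrays, so its ratio carries little. Its relative SGK2 had 659 and 579 (-0.19) and SGK3 64.5 and 51.0 (-0.34). GSK3B, which phosphorylates NDRG1 after SGK1, gave -0.06 (1106 and 1060) and 0.15 at its probes, and GSK3A -0.08. MTOR, the kinase of the complex that activates SGK1, was the lowest of the genes read by bright probes alone, at 1190 and 923 (-0.37). MAPKAP1, a subunit of that complex, gave -0.26 at its brighter probe (463 and 386) and 0.65 at the other (106 and 166).

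Of 16 listed partners and downstream genes, 14 were compared, 3 were over 1.5-fold higher and 0 lower (12.4% and 10.8% of all genes), with a median of 0.17. At probes at or above the median level 1 of 13 was higher (1.73% of genes), APOA2, an apolipoprotein reported to bind NDRG1. APOA1, its companion in high density lipoprotein, did not share that ratio: it gave -0.23 (11943 and 10204) and 0.05 (4073 and 4217). The other 2 higher genes were CD82, a suppressor of metastasis, at a dim probe (31.1 and 51.2), and EGFR, the epidermal growth factor receptor, whose probes gave 0.01 (1183 and 1190), 0.52 (61.5 and 88.4) and, near the floor, 1.30 (6.96 and 17.2). MET, the hepatocyte growth factor receptor, likewise gave 0.01 at its brightest probe (782 and 785) and 0.74 at a dimmer one (59.2 and 98.7). VHL, which marks hydroxylated NDRG3 and HIF1A for degradation, was the lowest at 8644 and 7167 (-0.27), and EGLN1, the hydroxylase that acts on both, gave 0.33 (454 and 569) and -0.47 (53.2 and 38.5). SMAD4 gave 0.00 at its brighter probe and -0.31 at the other. RAB4A, the recycling GTPase with which NDRG1 acts on E-cadherin, had 0.17 and CDH1, E-cadherin itself, -0.12.

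NDRG1 belongs to the genes induced by hypoxia. Of 23 others listed, 22 were compared, of which 2 were over 1.5-fold higher and 2 lower, shares near the 12.4% and 10.8% of all genes, and their median was -0.07, on the same side of 0 as NDRG1 and near the 0.03 of all genes. At probes at or above the median level, 1 of 18 was over 1.5-fold lower and 0 higher (0.941% and 1.73% of genes). That gene was P4HA2, a collagen prolyl hydroxylase, with 1658 in control and 956 in anti-miR-19b cells (-0.79, 1 probe), a lower ratio than that of NDRG1. P4HA1, its paralog, had 55.6 and 52.0 (-0.10). ERO1A, an oxidase of the endoplasmic reticulum, gave -0.69 at one probe (53.7 and 33.4) and 0.35 at the other (90.3 and 115), so that its probes disagreed. DDIT4, an inhibitor of mTOR signaling, had 2833 and 2432 (-0.22), PFKFB4 -0.22, KDM3A 0.05 and ADM 0.00 (134 and 134). The highest of these genes read by bright probes were VEGFA, with 0.52 at one probe (245 and 350) and 0.05 at the other (125 and 129), and HK2 (0.26). P4HA2 thus had a ratio like that of NDRG1, but the study does not list P4HA2 among its lowered genes. The other gene over 1.5-fold lower was ANKRD37, at a dim probe (34.0 and 21.1, -0.69). The 2 higher genes were also at dim probes, EGLN3 (0.466 and 0.942, 1.01) and SLC2A1 (8.10 and 12.5, 0.63). Of the 22 genes, 18 lay within 1.5-fold.

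The ABHD genes, which share the alpha/beta hydrolase fold with the NDRG genes but are a separate family, gave no ratio common to all. Of 20 listed, 19 were compared, 6 were over 1.5-fold higher and 1 lower (12.4% and 10.8% of all genes), with a median of 0.32. At probes at or above the median level this became 1 of 11 higher, 0 lower (1.73% and 0.941% of genes) and a median of 0.04. The one was ABHD3, a phospholipase, with 425 and 656 (0.63). ABHD8 gave -0.18 at its bright probe (433 and 382) and 2.66 at a probe near the floor (0.937 and 5.92). At probes at or above the median level that made ABHD8 the lowest gene of the list, followed by ABHD14A (-0.17) and ABHD6 (-0.13), a lipase that breaks down monoacylglycerol.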

How the data were processed

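The values deposited by the authors are normalized intensities, linear and 1 for each probe of an array, from labeled RNA on Human OneArray slides that were scanned and quantified. The methods used to normalize and background-correct them, and the number of technical hybridizations, are not stated in the labels or methods. The labels name Cy5 as the dye and the methods fluorescein. The extraction text of the labels describes liver tissue, while the sample labels name Hep 3B.

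In the platform annotation 25053 of the 29187 probes have 1 gene symbol, 0 several and 4134 none. In all, 24981 were matched by Entrez identifier to RefSeq genes (GRCh38.p14), used for names. The 3001 probes at or below 0 on an array were dropped. Genes took the mean log2 ratio over their probes. Calls used 1.5-fold. Neighbours were the 500 probes nearest in mean level. The combined middle spread of a difference is the root of the summed squares of both probes' neighbour spreads. Precision is limited by the number of arrays.

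The members and lists were chosen with earlier results of these data known. Named genes were every NDRG probe, the neighbours of NDRG1 closest to 1.5-fold lower, the list members over 1.5-fold at a probe at or above the median level, the 2 highest and 2 lowest of each list whose brightest probe is at or above it, direct regulators, and the 3 nearest patterns; others were named after their values were seen. Some listed genes were not analysed here. Alternatives were median centring, quantile normalization, removal of a loess trend (fraction 0.3), an offset of 50, each gene's brightest probe, a threshold of 2-fold, probes at or above the median level, and 200 or 1000 neighbours. The steps were tested on simulated data. Python 3.11.15, numpy 2.4.6, pandas 2.3.3, statsmodels 0.14.6 and matplotlib 3.10.9 were used.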

Additional observations from a re-analysis of the deposited data

How the results depend on the processing

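No paired analysis was possible because neither condition has a replicate array. The log2 ratio of NDRG1 stayed past 1.5-fold lower under median centring (-0.65), quantile normalization (-0.62), removal of the loess trend (-0.63) and an offset of 50 (-0.62), and at a 2-fold threshold 0 NDRG probes were called. NDRG2, NDRG3 and NDRG4 each moved by less than the middle spread of their neighbours under every alternative. Of the 26186 compared probes, 3132 were over 1.5-fold lower and 3603 higher. With the offset of 50, which keeps all 29187 probes, the counts were 52 and 85. They were 1762 and 1859 at 2-fold and 138 and 316 at or above the median level. These smaller counts arise by construction of the settings. Higher probes were 53.5% of those over 1.5-fold, 62.0% with the offset and 69.6% among probes at or above the median level. In the 5 related lists, with 10, 13, 14, 22 and 19 genes compared, 17 genes were over 1.5-fold either way. Of these, 12 were higher and 5 lower, where 12.4% and 10.8% of all genes were. With probes at or above the median level alone 3 genes passed (2 higher and 1 lower), where 1.73% and 0.941% of genes did. With the offset 2 did (1 and 1), at 2-fold 7 (5 and 2), and at the brightest probe of each gene 3 were lower. For these last settings no share of all genes is given, so nothing is read from their counts. Inhibitor, culture, RNA preparation and hybridization differ together between the arrays and cannot be told apart.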
